A study of Mus musculus with 6 samples.

Results

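Class IIa histone deacetylases comprise 4 genes in the mouse, Hdac4, Hdac5, Hdac7 and Hdac9, which were all measured by RNA-Seq in the olfactory mucosa of mice lacking the olfactory receptor chaperones RTP1 and RTP2. The 4 genes were taken by family name from the 24661 genes in the tables, and their 16 listed transcripts are part of 38041. Hdac9 was chosen by its own values, since its RNA was lower in the knockout, and its difference between the genotypes is therefore given as a description without a test. Hdac4, Hdac5 and Hdac7 came in by family alone and were tested.

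The study compared 3 wild-type mice with 3 RTP1,2DKO mice, which are homozygous for null alleles of both Rtp1 and Rtp2. All 6 were labelled C57BL/6 and postnatal day 21, and came as sex-matched littermates. The alleles were made in ES cells of a hybrid 129/B6 background. The Rtp1 coding region was exchanged for loxP and that of Rtp2 for a puromycin cassette. The change is in every cell of the body and not in neurons alone. RNA came from the whole mucosa, the olfactory epithelium with the tissue around it, although the labels name the epithelium only. In such RNA, fewer cells of a type and less RNA per cell cannot be told apart.

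Class IIa deacetylases are shuttling repressors. In the nucleus they bind MEF2 transcription factors and bring in the NCoR and SMRT corepressors with HDAC3, which carries most of the enzymatic activity of the complex. CaM kinases, which respond to calcium, protein kinases D, salt-inducible kinases and MARK kinases phosphorylate class IIa proteins. The phosphorylated proteins are held by 14-3-3 proteins and kept in the cytoplasm, and MEF2 targets are released. RNA levels do not show where the protein is. Olfactory sensory neurons (OSNs) respond to odorants with calcium entry through cyclic nucleotide-gated channels.

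The 4 genes lie on different chromosomes, and none is on chromosome 16 with Rtp1 and Rtp2. In GENCODE M21 (GRCm38), all 4 are on the minus strand: Hdac4 at chr1:91928779-92195699, Hdac5 at chr11:102194432-102230166, Hdac7 at chr15:97792664-97844502 and Hdac9 at chr12:34047580-34917095. Hdac9 spans 869516 bases, against 35735 for Hdac5. RefSeq (GRCm38.p6) lists 2 start sites of Hdac9 that lie 388206 bases apart, and the 250 bases before each are given here because Hdac9 is the member whose level differed, together with those of Hdac5, the member whose stretch holds a MEF2 motif. The motif is in capitals in the Hdac5 line, and all 3 are written 5′ to 3′ on the minus strand.
Hdac9, chr12:34917096-34917345, before the distal start: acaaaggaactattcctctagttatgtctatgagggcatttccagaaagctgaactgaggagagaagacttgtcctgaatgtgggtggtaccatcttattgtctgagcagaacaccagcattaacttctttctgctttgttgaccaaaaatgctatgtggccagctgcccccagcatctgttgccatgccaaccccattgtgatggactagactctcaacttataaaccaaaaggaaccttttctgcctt
Hdac9, chr12:34528890-34529139, before the inner start: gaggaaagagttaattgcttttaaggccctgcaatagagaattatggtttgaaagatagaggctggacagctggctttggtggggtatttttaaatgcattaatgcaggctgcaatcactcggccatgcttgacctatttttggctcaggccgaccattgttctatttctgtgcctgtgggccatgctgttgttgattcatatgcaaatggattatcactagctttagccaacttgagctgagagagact
Hdac5, chr11:102230173-102230422: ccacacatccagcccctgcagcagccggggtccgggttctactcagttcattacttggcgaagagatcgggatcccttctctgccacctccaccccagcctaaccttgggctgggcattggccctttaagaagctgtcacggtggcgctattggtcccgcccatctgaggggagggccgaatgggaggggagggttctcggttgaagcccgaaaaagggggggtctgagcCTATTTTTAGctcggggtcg

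Both Hdac9 stretches were poor in G and C, at 44.4% and 43.6%, and held 0 and 2 CpG dinucleotides. The median of all 32851 stretches of that length was 52.4% with 6 CpG, and 21.1% of them had 43.6% G and C or less. In the Hdac5 stretch, G and C made up 60.8% with 12 CpG. Its MEF2 match, CTATTTTTAG, lay 20 to 11 bases before the start. On either strand, the MEF2 consensus was found in 1 of the 8 stretches of the 4 genes and in 2.92% of all stretches. The cAMP response element TGACGTCA was in 0 of the 8, against 1.55% of all. These matches describe letters in a window and are not evidence of binding.

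Sequencing depth was 31125410 to 41636996 estimated counts per mouse, of which the secreted-protein gene Bpifb9b took 4.81% to 13.7%. The knockout was seen in every RTP1,2DKO library: normalized counts of Rtp1 were 20522, 25301 and 13543 in the wild-type group against 90.6, 85.5 and 109 in the knockout group, and Rtp2 had 7157 to 9510 against 26.2 to 58.0. Across the 22152 genes tested, edgeR called 3.61% at an adjusted p under 0.05, 3.15% lower and 0.46% higher in RTP1,2DKO. An unadjusted p under 0.05 was found for 11.8% of the genes. The median log2 fold change over all genes was 0.02. The tissue markers were there: Omp, the classical marker of mature OSNs, had 64807 ± 4152 normalized counts (SD, n = 3) in wild-type mice.

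Hdac9 RNA was at 0.495 of the wild-type level in RTP1,2DKO, and the other 3 members were near their wild-type levels. Normalized counts, which are estimated counts divided by a size factor per library, serve here to compare mice. Hdac9, whose product represses MEF2 targets and is known for its part in the response of muscle to denervation, had 2326, 2904 and 2248 in wild-type mice and 1523, 1108 and 1068 in RTP1,2DKO mice. The groups did not overlap, since RTP1,2DKO mouse 1, the highest of its group, was below all wild-type mice. Of all genes tested, 9.24% were lower in every RTP1,2DKO mouse. The means were 2493 ± 358 and 1233 ± 252 (SD, n = 3), with a fitted log2 fold change of -1.02 (SE 0.16), which is the contrast that chose the gene. Of 13900 genes with a mean of at least 100 normalized counts, 321 had a lower log2 fold change.

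Hdac4, known from the growth plate and from neurons, had 2138, 1664 and 1699 normalized counts in wild-type mice and 1834, 1674 and 1696 in RTP1,2DKO. The groups overlapped, and wild-type mouse 1 was the highest of the 6. The log2 fold change was -0.08 (SE 0.13, adjusted p = 0.888, edgeR), with a 95% interval of -0.33 to 0.17.

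Hdac5, a close relative of Hdac9 that acts with it in the heart, had 1232, 1043 and 1174 normalized counts in wild-type mice and 967, 967 and 1168 in RTP1,2DKO. Only RTP1,2DKO mouse 3 lay within the wild-type range. In each of the 3 same-numbered pairs, which were taken as littermates, the RTP1,2DKO mouse was lower. Its log2 fold change was -0.15 (SE 0.13, adjusted p = 0.762, edgeR), with a 95% interval of -0.41 to 0.10.

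Hdac7, known from endothelium and thymocytes, had 943, 807 and 1018 normalized counts in wild-type mice and 786, 1052 and 970 in RTP1,2DKO. The highest and the lowest of the 6 values were both in RTP1,2DKO. Its log2 fold change was 0.02 (SE 0.15, adjusted p = 0.984, edgeR), with a 95% interval of -0.26 to 0.31. Thus 0 of the 3 tested members passed the threshold in edgeR, 0 had an unadjusted p under 0.05, and 0 passed in DESeq2, which called 5.81% of the genes it adjusted. All 3 intervals exclude a change of the size fitted for Hdac9 and include smaller changes in either direction.

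**Figure D1:**
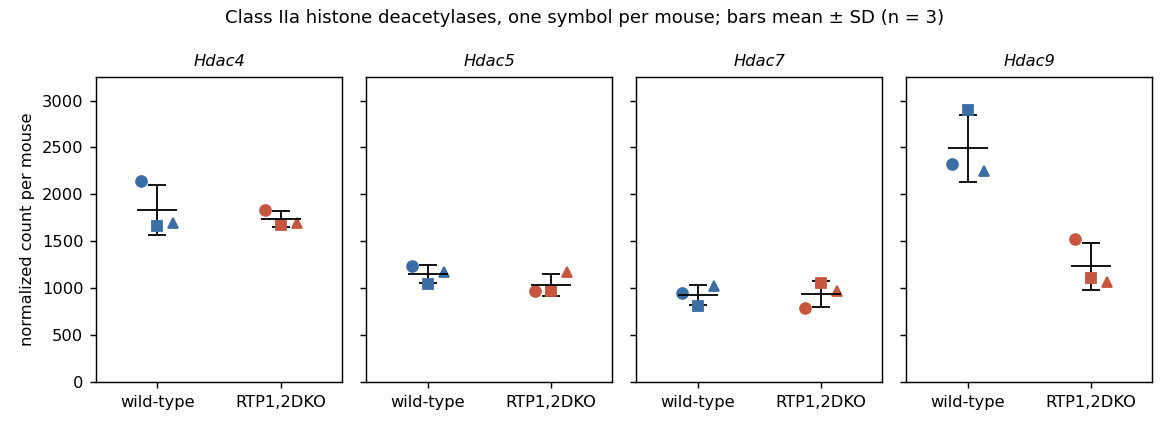
Normalized counts of the 4 class IIa genes (vertical axis, linear) in wild-type and RTP1,2DKO mice. Circles, squares and triangles are mice 1, 2 and 3 of a group and bars give the mean ± SD (n = 3). Hdac9 is between 2248 and 2904 in wild-type and between 1068 and 1523 in RTP1,2DKO, while the groups overlap for the other 3 genes.

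To set the genes against each other, TPM values, which account for transcript length, were summed per gene. The order was the same in every wild-type mouse, with Hdac9 highest, then Hdac5, Hdac7 and Hdac4. Hdac9 had 15.6, 22.5 and 10.9 TPM in wild-type mice 1 to 3, and Hdac5 had 12.7, 11.5 and 8.40. Hdac7 had 10.01, 9.08 and 7.46 TPM and Hdac4 had 9.84, 8.16 and 5.43. In wild-type mouse 1 the lower neighbours, Hdac7 and Hdac4, were nearly level, whereas in mouse 2 Hdac9 stood well above the rest.

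RTP1,2DKO mice had no such shared order. Hdac9 had 8.80, 5.59 and 4.77 TPM, second in mouse 1 and last in mice 2 and 3. Hdac5 had 9.26, 7.44 and 8.12 TPM and was highest in mice 1 and 3, and Hdac7, with 7.66, 8.15 and 6.83, was highest in mouse 2. Hdac4 had 7.84, 5.70 and 5.22. All 4 genes thus lay between 4.77 and 9.26 TPM in RTP1,2DKO.

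The neighbours Hdac5, Hdac7 and Hdac4 were compared in an exact two-sided sign-flip test over all 6 mice, whose smallest possible p is 0.0312, and neither pair passed 0.05. Hdac5 exceeded Hdac7 in 5 of 6 mice by a mean log2 ratio of 0.21 ± 0.18 (SD, exact p = 0.0625, 0.0938 adjusted over these 2 pairs). Hdac7 exceeded Hdac4 in 5 of 6 mice by 0.25 ± 0.23 on the log2 scale (exact p = 0.0938, adjusted 0.0938). Hdac5 was above Hdac4 in every mouse of both groups, but only neighbours in the order were tested. Hdac9 exceeded Hdac5 in the 3 wild-type mice and in 0 of the 3 RTP1,2DKO mice (mean log2 ratio 0.06 ± 0.62). That split repeats the contrast that chose Hdac9 and is given without a test.

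Of the TPM summed over the class, Hdac9 made up 32.4%, 43.9% and 33.8% in wild-type mice and 26.2%, 20.8% and 19.1% in RTP1,2DKO. The shares of Hdac4 and Hdac5 were higher in every RTP1,2DKO mouse, at 21.8% ± 1.34 against 17.8% ± 2.39 for Hdac4 and 29.3% ± 2.85 against 25.0% ± 2.22 for Hdac5 (SD, n = 3). Shares of a class add up to the whole, so these differences are not independent of that of Hdac9, and the normalized counts of both genes overlapped between the groups.

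**Figure D2:**
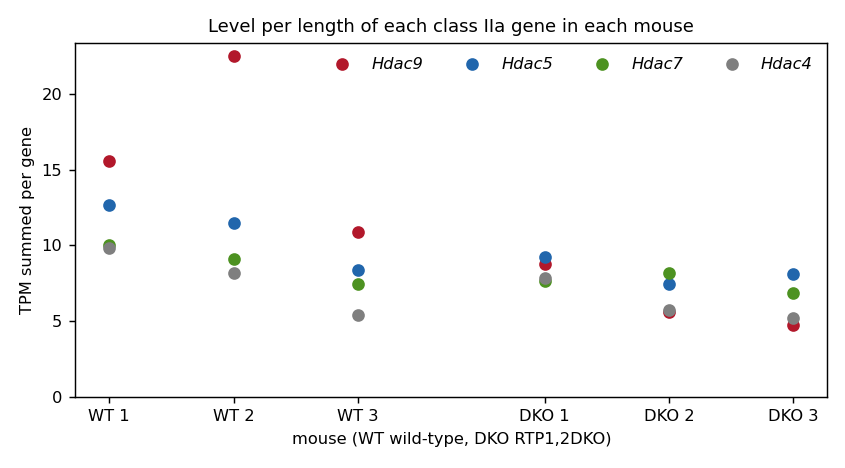
TPM summed per gene (vertical axis, linear) for each class IIa gene in each of the 6 mice (horizontal axis). Hdac9 is the top point in all 3 wild-type mice, up to 22.5 TPM, and the lowest point in RTP1,2DKO mice 2 and 3, at 5.59 and 4.77 TPM.

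The files list 1 transcript of Hdac4, 5 of Hdac5, 8 of Hdac7 and 2 of Hdac9. Transcripts are named as in the files, where the first has the gene symbol alone and others a trailing number. kallisto shares out reads between transcripts with common exons, and the uncertainty of that split was not analysed here. The files give a length for each transcript and no structure, so what each encodes was not determined. Hdac9 is known to give a shorter protein, MITR, that lacks the deacetylase domain, but neither transcript could be assigned to it.

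Both Hdac9 transcripts were lower in normalized counts in every RTP1,2DKO mouse, as 8.1% of all 33023 transcripts tested were. In TPM this held for Hdac9_1, while the groups overlapped for Hdac9, at 3.14 in wild-type mouse 3 and 3.96 in RTP1,2DKO mouse 1. The 8195-base transcript Hdac9 had 1168, 1079 and 986 normalized counts in wild-type mice and 929, 526 and 541 in RTP1,2DKO. The 4461-base transcript Hdac9_1 had 1134, 1812 and 1243 in wild-type mice and 580, 576 and 521 in RTP1,2DKO. In RTP1,2DKO mouse 1 the longer transcript stayed close to the wild-type range, while the shorter one was nearly the same in all 3 RTP1,2DKO mice.

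The fitted log2 fold changes were -0.70 (SE 0.25) for Hdac9 and -1.32 (SE 0.20) for Hdac9_1, again without a test. Hdac9_1 carried 55.9% ± 6.70 of the counts of the gene in wild-type mice and 46.6% ± 7.26 in RTP1,2DKO (SD, n = 3). The values per mouse were 49.3%, 62.7% and 55.8% against 38.4%, 52.2% and 49.1%, so that the groups overlapped. Within the same-numbered pairs the share was lower in RTP1,2DKO each time, with differences of -10.9, -10.4 and -6.68 percentage points.

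Of 14 transcripts of Hdac4, Hdac5 and Hdac7, 12 had a count in some mouse and were tested. In edgeR, 0 of the 12 passed an adjusted p of 0.05 and 1 had an unadjusted p under 0.05, and in DESeq2 0 passed and 1 had an unadjusted p under 0.05. The transcript fit called 0.0242% of all transcripts, and 7.55% had an unadjusted p under 0.05. It had little power, so that 0 calls here do not show that transcripts were alike.

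The transcript with the unadjusted p was Hdac5, of 3925 bases, which carried most of the counts of its gene. It had 974, 747 and 762 normalized counts in wild-type mice and 605, 613 and 651 in RTP1,2DKO. It was thus lower in every RTP1,2DKO mouse, as 8.1% of all transcripts tested were. In TPM the groups overlapped, at 5.496 in wild-type mouse 3 and 5.85 in RTP1,2DKO mouse 1. The log2 fold change was -0.41 (SE 0.14, unadjusted p = 0.0302, adjusted p = 0.617, edgeR). Hdac5_4, of 3816 bases, had 168, 174 and 304 against 249, 207 and 465, with overlapping groups, but higher in RTP1,2DKO in each of the 3 pairs. Its log2 fold change was 0.51 (SE 0.42, adjusted p = 0.817, edgeR), and 0.079 without RTP1,2DKO mouse 3. Hdac5_1, Hdac5_2 and Hdac5_3 had at most 98.4 in any mouse.

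The share of the gene's counts on its leading transcript was 80.0%, 72.0% and 65.4% in wild-type mice and 63.1%, 63.6% and 56.0% in RTP1,2DKO for Hdac5, a difference of -11.5 percentage points. This had the smallest p that an exact permutation test of 3 against 3 can give, 0.1. For Hdac7, Hdac7_2 of 3791 bases carried 86.9% ± 2.73 in wild-type mice and 82.5% ± 1.24 in RTP1,2DKO (SD, n = 3, exact p = 0.1), and as a share of TPM the groups overlapped (exact p = 0.2).

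Hdac7_2 had 832, 703 and 846 normalized counts against 633, 865 and 808 (log2 fold change -0.05, SE 0.16, adjusted p = 0.983, edgeR). The transcripts named Hdac7 and Hdac7_1 had rounded counts of 0 in all 6 mice, and the other 5 had at most 163 in any mouse. The single Hdac4 transcript, of 8100 bases, had 1656 to 2116 in wild-type mice and 1666 to 1817 in RTP1,2DKO (log2 fold change -0.08, SE 0.12, adjusted p = 0.941, edgeR).

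**Figure D3:**
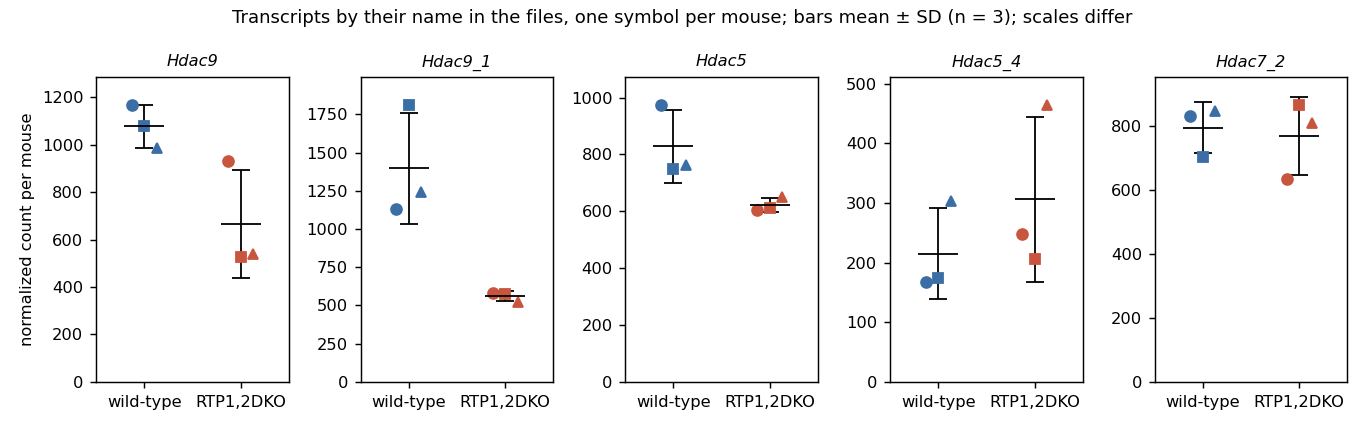
Normalized counts (vertical axes, linear, each panel on its own scale from 0) of 5 transcripts of Hdac9, Hdac5 and Hdac7 by genotype. Circles, squares and triangles are mice 1, 2 and 3 and bars the mean ± SD (n = 3). Both Hdac9 transcripts and the transcript named Hdac5 are lower in every RTP1,2DKO mouse, as 8.1% of all transcripts tested are. The groups overlap for Hdac5_4 and Hdac7_2.

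Mature OSN markers were lower in RTP1,2DKO too. Hdac9 was picked for its fall, so the shared direction follows from that choice. Of 11 such markers, among them the odorant transduction genes Adcy3, Gnal and Cnga2, 9 fell in RTP1,2DKO (11 with a replicate block) and 0 rose, with a median log2 fold change of -1.05 and a range of -2.002 to -0.745. The 2 that missed the threshold were Gng13 and S100a5. The summed normalized counts of the 11 were 170563 to 192722 in wild-type mice and 86204 to 93484 in RTP1,2DKO, a mean ratio of 0.487. None of the 11 was at 0. Within the groups the order of mice differed between this sum and Hdac9. RTP1,2DKO mouse 1 had the lowest sum of its group, 86204, and the highest Hdac9, 1523, while wild-type mouse 3 was lowest of its group in both.

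For each 1000 of these summed marker counts, Hdac9 had 12.1, 15.3 and 13.2 normalized counts in wild-type mice and 17.7, 11.8 and 11.9 in RTP1,2DKO. The groups overlapped on this scale, with RTP1,2DKO mouse 1 the highest. With size factors taken from the mature markers in place of all genes, the log2 fold change of Hdac9 turned to 0.12 (SE 0.17). That scaling raised the median of all genes by 1.12, so relative to that median Hdac9 was at -1.02. The part of mature neuron content in the Hdac9 difference was not tested.

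**Figure D4:**
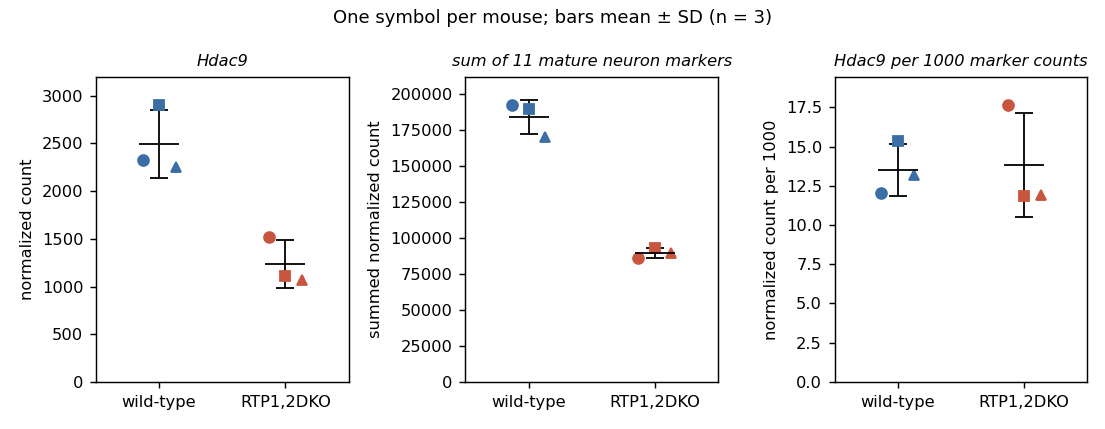
Hdac9, the sum of 11 mature OSN markers and Hdac9 per 1000 of those marker counts (vertical axes, normalized counts, linear from 0) by genotype. Circles, squares and triangles are mice 1, 2 and 3 and bars the mean ± SD (n = 3). The first and second measures are lower in every RTP1,2DKO mouse, at ratios of 0.495 and 0.487, and the groups overlap in the last.

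Markers of other cell types gave few calls. Of 7 immature OSN markers, 2 rose, Gap43 (log2 fold change 0.58, adjusted p = 0.0418) and Gng8 (0.91, adjusted p = 0.0104), and 4 rose with a replicate block. Leaving out any mouse but wild-type mouse 1 left only Gng8 called. None of 5 progenitor markers passed in edgeR, although all 5 had an unadjusted p under 0.05, as 11.8% of all genes did. Their summed counts were higher in every RTP1,2DKO mouse, at 6334 to 8592 against 4271 to 5660. Of those 5, 1 passed in DESeq2 and 1, Top2a, with the block (adjusted p = 0.0154).

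Of 5 erythroid genes, Hbb-bt rose (log2 fold change 0.88, adjusted p = 0.0485, and 0.0506 with the block). Their summed counts overlapped, at 57894 to 94381 in wild-type and 92242 to 169783 in RTP1,2DKO. With filterByExpr the adjusted p of Hbb-bt was 0.0815. Without wild-type mouse 2 it was 0.0516 and 1 other erythroid gene passed, without RTP1,2DKO mouse 3 all 5 passed, and without any other 1 mouse 0 passed.

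The 5 sustentacular, 3 horizontal basal, 6 endothelial, 6 skeletal muscle, 6 bone and cartilage, 6 immune and 5 glial markers had 0 calls in edgeR and 0 in DESeq2, and 1 glial marker had an unadjusted p under 0.05. The summed skeletal muscle markers were low, at 92.6 to 631 in wild-type and 94.2 to 549 in RTP1,2DKO. Among the bone and cartilage markers, which differed widely between mice of a group, Col2a1 had 357, 4346 and 965 in wild-type mice and 4679, 8952 and 750 in RTP1,2DKO (log2 fold change 1.34, SE 0.80, adjusted p = 0.601, edgeR). The part of these cell types in any member's level was not tested.

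The partners of the class were followed in lists of 55 genes with 1 call in all, lower in RTP1,2DKO, where 3.61% of all genes were called. Each list is given with its median log2 fold change, beside 0.02 over all genes. Its count at an unadjusted p under 0.05 stands beside 11.8% of all genes. The most abundant gene of a list means the one with the most normalized counts, which are not corrected for transcript length.

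Among the other zinc-dependent deacetylases, 0 of 7 passed in edgeR, with a median of 0.19. The most abundant, Hdac3, the catalytic subunit that class IIa proteins depend on, had 10496, 10732 and 11748 normalized counts in wild-type mice and 12595, 16277 and 15195 in RTP1,2DKO. It was higher in every RTP1,2DKO mouse, as 7.17% of all genes were. Its log2 fold change was 0.42 (SE 0.13, adjusted p = 0.126 in edgeR, 0.0275 in DESeq2). Hdac2, a class I nuclear deacetylase that was looked up after its value was seen, had a log2 fold change of 0.37 (adjusted p = 0.167, edgeR) and was the other member with an unadjusted p under 0.05. Of the 7 sirtuins, which are NAD-dependent, 0 passed in either tool and 0 had an unadjusted p under 0.05, with a median of 0.03 and Sirt1 the most abundant at 1502 and 1491 mean normalized counts.

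Of the 4 MEF2 factors to which the class binds, 0 passed in edgeR or DESeq2 and 0 had an unadjusted p under 0.05, with a median of -0.17. Mef2a, the most abundant, had 10618, 11023 and 8728 normalized counts in wild-type mice and 9449, 8784 and 8194 in RTP1,2DKO (log2 fold change -0.20, SE 0.13, adjusted p = 0.641, edgeR). The groups overlapped. The corepressors and other binding partners had 0 of 10 called in edgeR and 1 in DESeq2, Hdac3, with 2 at an unadjusted p under 0.05 and a median of -0.01.

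Kinases that send class IIa proteins out of the nucleus had 1 of 16 called, lower, and 3 at an unadjusted p under 0.05, with a median of 0.02. The gene called was Camk2d, the delta subunit of CaM kinase II, a kinase that docks on HDAC4. It had 11083, 12124 and 10022 normalized counts in wild-type mice and 7691, 7416 and 7633 in RTP1,2DKO, lower in every RTP1,2DKO mouse, as 9.24% of all genes were. The log2 fold change was -0.55 (SE 0.12, adjusted p = 0.0186, edgeR). The adjusted p rose to 0.0716 without wild-type mouse 2 and to 0.0658, 0.103 and 0.0792 without RTP1,2DKO mouse 1, 2 or 3. With size factors from the mature markers it turned to 0.58, against a median of all genes of 1.13 on that scale.

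The 7 genes for 14-3-3 proteins, which hold phosphorylated class IIa proteins in the cytoplasm, had 0 calls in either tool and 0 at an unadjusted p under 0.05, with a median of 0.03. Ywhaq, the most abundant, had means of 17509 and 17840 normalized counts. Of 5 MEF2 target genes, 0 passed in edgeR, 1 passed in DESeq2, 1 passed with a replicate block and 1 had an unadjusted p under 0.05, with a median of -0.01 and Jun the most abundant at means of 2268 and 2257.

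**Figure D5:**
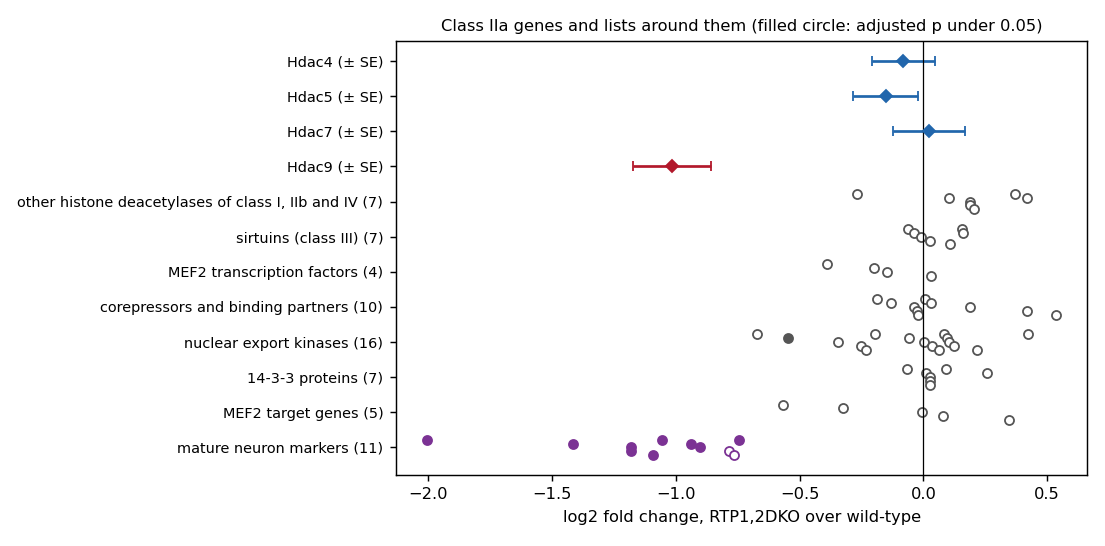
Log2 fold changes of RTP1,2DKO over wild-type (horizontal axis) for the 4 class IIa genes (diamonds, ± SE of the fit), for each gene of 7 lists around them and for 11 mature OSN markers (circles, filled where the adjusted p is under 0.05). Numbers in brackets count the genes of a list. Hdac9, at -1.02, lies within the range of the mature markers, -2.002 to -0.745, and of the 55 list genes Camk2d alone is filled.

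Genes whose normalized counts followed each member most closely over the 6 mice were taken by Pearson's r on the log2(normalized count + 1) scale among 13899 others with a mean of at least 100. The 6 mice form 2 genotypes, so for Hdac9 a high r reflects the genotype difference as well as the spread within groups. Its 3 nearest were the odorant receptor gene Olfr1157 (r = 1.00), the anti-apoptotic gene Bcl2 (r = 0.997) and Zfp654 (r = 0.996). Olfr1157 went from a mean of 209 to 42.3 normalized counts and Bcl2 from 1809 to 1239. Nearest to Hdac4 were Map1lc3a (r = 0.995), Bcl9 (r = 0.995) and Dyrk1b (r = 0.993). Nearest to Hdac5 were Zfp827 (r = 0.991), Pfkp (r = 0.989) and Zfp791 (r = 0.987), and to Hdac7 Pitpnm1 (r = 0.988), Phf12 (r = 0.987) and Copg1 (r = 0.982). With so many genes and 6 mice, values of this size are a description only.

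The genomic neighbours of the 4 genes were not called. Nearest to Hdac9 on its left was Twist1, a bHLH factor of mesenchyme 87751 bases away, with 603, 722 and 860 normalized counts in wild-type mice and 944, 868 and 932 in RTP1,2DKO. It was higher in every RTP1,2DKO mouse, as 7.17% of all genes were, with a log2 fold change of 0.33 (SE 0.15, adjusted p = 0.40, edgeR). On the right of Hdac9, Prps1l1 had at most 3.16 in any mouse. Around Hdac4 were Twist2 and Ndufa10, around Hdac5 G6pc3 and BC030867, and around Hdac7 Slc48a1 and Vdr, with log2 fold changes from -0.22 for Vdr to 0.61 for BC030867 and adjusted p between 0.615 and 0.961.

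Most of the members' sequence was their own. Of the 31-base words in their GENCODE M21 transcripts, 98.9% for Hdac5, 99.9% for Hdac7 and 99.7% for Hdac9 occurred in no other gene. No listed transcript of Hdac5, Hdac7 or Hdac9 had the length of a GENCODE M21 transcript of its gene. The figures thus describe the GENCODE sequences and not those to which reads were assigned. For Hdac4 it was 78.1%, the rest mostly shared with Gm26720, a noncoding gene on the opposite strand that is not listed in the tables. Slc48a1 overlaps the end of Hdac7 by 29 bases on the opposite strand, and Mir8101 lies within Hdac5. The kit was stranded, and whether kallisto used the strand was not stated.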

How the data were processed

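RNA of the whole olfactory mucosa was sequenced from 3 wild-type and 3 RTP1,2DKO mice with a stranded kit. With kallisto, the authors assigned reads to UCSC mouse transcripts in which OR models had been extended, and deposited estimated counts and TPM for every transcript. The submitters' processing notes name mm10, and the version of kallisto is not given in the sources used here. Groups came from the labels.

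Estimated counts were summed per gene (the transcript name without its trailing number) and rounded. All genes, and separately all transcripts, with at least 1 count in some mouse were fitted in edgeR 4.0.16 (quasi-likelihood F-test) with DESeq2 1.42.0 size factors in R 4.3.3, with Benjamini-Hochberg adjustment at 0.05. The fits were tested on simulated data, where the gene fit recovered most of the changes put in and the transcript fit few. Intervals are the fitted value with a normal 95% range from its SE. Promoter stretches came from RefSeq (GRCm38.p6), where all 4 genes matched. Summaries used Python 3.11.15.

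Depth was 31125410 to 41636996 estimated counts per mouse. Alternatives were TMM, other filters, DESeq2's Wald test, a replicate block, leaving out each mouse, size factors from mature OSN markers and, for levels and shares, other scales. The replicate numbers were taken to pair littermates, which the labels do not state. Deviations from the group means of same-numbered mice correlated at 0.139, 0.179 and 0.103 over 18133 genes with a mean of at least 10. Those of unlike-numbered mice correlated at -0.219 to 0.0934. The members, gene lists and tests were chosen with earlier results of these data known. Named are the members and their transcripts, list genes past the threshold or else the most abundant of a list, Rtp1 and Rtp2, the 3 genes most alike each member and its nearest coding neighbours. Further genes are said to have been chosen after their values were seen, or are cell type markers. Some genes of the lists are counted but not reported here by name. No protein sequences were used here.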

Additional observations from a re-analysis of the deposited data

How the results depend on the processing

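Hdac9 stayed lower in RTP1,2DKO under TMM, both filters, DESeq2 and the replicate block, and at -1.20 to -0.89 (log2) without 1 mouse. Size factors from mature OSN markers turned it to 0.12. With them Hdac4 (1.03), Hdac5 (0.97) and Hdac7 (1.13) all passed, 54 list genes and 4 transcripts of Hdac4, Hdac5 and Hdac7 passed, and 16176 genes passed (246 lower, 15930 higher, against 799, 697 and 102). Those factors are built from genes that fell, and by construction raise all others. Without 1 mouse, Hdac4 ranged from -0.15 to 0.045, Hdac5 from -0.25 to -0.10 and Hdac7 from -0.072 to 0.13, none called, and the sign of Hdac4 turned without wild-type mouse 1 and that of Hdac7 without wild-type mouse 2 (-0.066) or RTP1,2DKO mouse 2 or 3.

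Calls higher in RTP1,2DKO numbered 217 in DESeq2, 196 with the replicate block and 52 to 132 without 1 mouse. Called genes in the lists numbered 3 in DESeq2, 2 with the block and 0 or 1 without 1 mouse. The block, which pairs same-numbered mice, gave log2 fold changes of -0.07 for Hdac4, -0.15 for Hdac5, 0.02 for Hdac7 and -1.03 for Hdac9. Beside the calls given in the report and those of Dpysl3 and Stmn1, it changed no other call among members and lists. Over all transcripts, 8 were called in edgeR, 1106 in DESeq2, 20 with filterByExpr, 2 without a filter, 0 with the block, 13457 with the marker size factors and 0 or 1 without 1 mouse, so that the transcript test depended on the tool. The mean log2 ratio of Hdac9 over Hdac5 went from -0.12 without wild-type mouse 2 to 0.23, and that of Hdac5 over Hdac7 turned to -0.18, and that of Hdac7 over Hdac4 went to 0.037, with the leading transcripts alone. Among transcripts, the marker size factors gave 0.72 for Hdac5, 1.66 for Hdac5_4, 0.46 for Hdac9, -0.16 for Hdac9_1 and 1.08 for Hdac7_2, and Hdac7_2 ranged from -0.14 to 0.077 without 1 mouse. For changes with the tool, the block or a left-out mouse, the cause was not tested. Interval width for the 3 tested members was set by the spread between mice, which edgeR moderates across genes, and the 3 mice per group.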
